A study of Homo sapiens with 30 samples.

Results

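The comparison is a difference of 2 effects on mRNA levels in HEK293, a line derived from human embryonic kidney and of wild-type genotype per the labels. The first effect is that of Ser-tRNA_Arg(CCG), taken as the EGFP(R65) reporter with this tRNA minus EGFP(R65) alone. The second is that of Arg-tRNA_Cys(GCA), taken as the EGFP(R96C) reporter with this tRNA minus EGFP(R96C) alone. It uses 12 of the 30 libraries in the series, 3 in each of the 4 groups, chosen by the labelled reporter and tRNA. All 12 came from cells transfected with an EGFP-mCherry fusion reporter and sorted for mCherry 48 h later, and where a tRNA was present it was carried on the same plasmid as the reporter. The labels describe the 3 libraries of a group as independent replicates. The series asks how such tRNAs affect the messenger RNA of the host cell, and this comparison asks where the responses to these 2 tRNAs move together and where they move in opposite directions. The 2 effects share no library.

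Both molecules are missense-correcting tRNAs (mc-tRNAs), engineered to carry an amino acid that differs from the one their anticodon stands for. By their names, Ser-tRNA_Arg(CCG) carries serine and has the anticodon for the arginine codon CGG, while Arg-tRNA_Cys(GCA) carries arginine and has the anticodon for the cysteine codons. Such a tRNA can act on a reporter and also on matching codons of the cell's own messages. Cells answer misfolded protein through separate programmes. The heat shock response, driven by heat shock factors, raises chaperones of the cytosol and nucleus. The unfolded protein response of the endoplasmic reticulum (ER) raises chaperones of the secretory pathway through ATF6, XBP1 and PERK. The integrated stress response, which runs through phosphorylation of eIF2alpha and the transcription factor ATF4, raises genes for amino acid supply, tRNA charging and stress control.

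The 12 libraries held 39017548 to 55206030 gene counts. Levels are given in CPM, counts relative to 1e+06 counts of the library, scaled with TMM factors, which correct for a few abundant genes taking a larger share of a library. The factors were 0.714 to 0.730 where Arg-tRNA_Cys(GCA) was present and 1.00 to 1.08 in the other 9. Scaling by library totals in place of TMM moved the median log2 effect of Arg-tRNA_Cys(GCA) over all tested genes from -0.04 to -0.59, and the median difference from -0.03 to 0.48, so changes are reported relative to TMM. The 6 libraries of EGFP(R65) and the 6 of EGFP(R96C) stood apart on the first principal component, and 0 spike-in (ERCC) counts were found in the former against 20 to 82 in the latter. Each effect is taken within its own reporter, but in the difference of the 2 effects the reporter, the tRNA and any batch that goes with them cannot be told apart. Of 10 markers typical of HEK293 cells 9 passed the filter on low counts, against 6 of 15 markers of stromal, blood, skin, endothelial and macrophage cells. Summed, the 15 took 0.00266 to 0.00284% of counts in EGFP(R65), 0.00265 to 0.00285% with Ser-tRNA_Arg(CCG), 0.00210 to 0.00233% in EGFP(R96C) and 0.00370 to 0.00384% with Arg-tRNA_Cys(GCA). Of the 15, KRT14 was at 0 in all 12 libraries and 8 had fewer than 30 counts in the 12 together. LUM, of stromal cells, went from 39 to 5 counts over 3 libraries with Ser-tRNA_Arg(CCG) and from 41 to 320 with Arg-tRNA_Cys(GCA), and the endothelial PECAM1 from 20 to 217 and from 19 to 13. Their part in the results was not tested, and in bulk RNA a change in the share of cells that express a gene and a change in its level per cell cannot be told apart.

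Promoters of 6 heat shock and ER folding genes, each holding the marked element, are shown as the 250 bases before the annotated start. They are written 5′ to 3′ on the gene's strand, from RefSeq on GRCh38.p14. Many other members of these gene lists lack the element, as counted below. Capitals mark a heat shock element of 2 inverted units (GAANNTTC) in the first 3 genes, which are heat shock genes that rose with both tRNAs by very unequal amounts (HSPA6), moved in opposite directions (HSPA1A) or were raised by Arg-tRNA_Cys(GCA) with no called change by the other (HSPB1). In the other 3, genes of ER folding that rose with both tRNAs, capitals mark an ER stress element (CCAAT and CCACG with 9 bases between them, on either strand). A match to these letters is a description and not a measured binding site.
HSPA6, chr1:161524290-161524539, plus strand: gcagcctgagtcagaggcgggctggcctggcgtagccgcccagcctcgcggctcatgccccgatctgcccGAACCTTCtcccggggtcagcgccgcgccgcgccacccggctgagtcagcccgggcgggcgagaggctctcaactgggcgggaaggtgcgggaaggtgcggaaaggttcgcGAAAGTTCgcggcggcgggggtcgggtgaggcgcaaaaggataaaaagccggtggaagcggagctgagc
HSPA1A, chr6:31815293-31815542, plus strand: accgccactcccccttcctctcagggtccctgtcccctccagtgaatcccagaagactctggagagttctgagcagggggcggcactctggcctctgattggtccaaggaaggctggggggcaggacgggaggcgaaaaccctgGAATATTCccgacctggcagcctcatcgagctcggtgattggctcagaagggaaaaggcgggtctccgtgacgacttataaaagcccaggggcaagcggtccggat
HSPB1, chr7:76302423-76302672, plus strand: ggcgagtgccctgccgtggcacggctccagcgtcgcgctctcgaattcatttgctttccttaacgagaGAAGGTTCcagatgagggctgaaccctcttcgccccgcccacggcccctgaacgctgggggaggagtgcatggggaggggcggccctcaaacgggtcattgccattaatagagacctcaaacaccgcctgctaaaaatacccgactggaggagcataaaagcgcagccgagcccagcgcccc
HSPA5, chr9:125241344-125241593, minus strand: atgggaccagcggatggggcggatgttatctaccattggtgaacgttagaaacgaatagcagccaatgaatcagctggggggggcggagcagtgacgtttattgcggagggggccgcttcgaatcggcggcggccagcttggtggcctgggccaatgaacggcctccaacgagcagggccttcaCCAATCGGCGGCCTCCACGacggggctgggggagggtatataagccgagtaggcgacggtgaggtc
HSP90B1, chr12:103930160-103930409, plus strand: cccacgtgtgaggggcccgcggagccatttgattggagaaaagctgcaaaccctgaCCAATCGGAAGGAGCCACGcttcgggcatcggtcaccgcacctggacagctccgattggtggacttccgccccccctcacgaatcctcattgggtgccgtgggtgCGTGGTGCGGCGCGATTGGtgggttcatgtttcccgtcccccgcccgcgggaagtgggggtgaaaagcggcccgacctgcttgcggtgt
CRELD2, chr22:49918384-49918633, plus strand: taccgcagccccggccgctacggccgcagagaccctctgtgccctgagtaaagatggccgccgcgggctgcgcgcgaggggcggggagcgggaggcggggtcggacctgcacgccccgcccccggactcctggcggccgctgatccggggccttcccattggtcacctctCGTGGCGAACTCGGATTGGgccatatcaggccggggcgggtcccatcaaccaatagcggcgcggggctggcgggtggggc

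Across windows from 250 bases before to 50 bases after the start, 13382 of 19301 tested symbols had a promoter in the RefSeq table. The ER stress element was present in 15 of these (0.112%). Of genes that rose with both tRNAs 10 of 1813 held it (0.552%), while 0 of 2116 did among genes that fell with both. It was also in 0 of 879 promoters of genes raised by Ser-tRNA_Arg(CCG) and lowered by Arg-tRNA_Cys(GCA), and in 0 of 1488 of genes moving the other way. Of the 24 unfolded protein response genes with a promoter, 6 held it (25.0%), namely CALR, CANX, CRELD2, HSP90B1, HSPA5 and XBP1. The 2-unit heat shock element occurred in 641 tested promoters (4.79%) and in 11 of 29 heat shock genes (37.9%). In the direction groups it lay near the share of all tested promoters. It was in 93 of 1813 that rose with both (5.13%) and 71 of 2116 that fell with both (3.36%). It was in 32 of 879 that rose with Ser-tRNA_Arg(CCG) and fell with Arg-tRNA_Cys(GCA) (3.64%), and in 86 of 1488 of the reverse (5.78%). The longer form had 3 alternating GAA and TTC units with 2 bases between neighbours, on either strand and overlapping the shorter one. It occurred in 48 tested promoters (0.359%) and in 6 of the 29 heat shock genes (20.7%), namely CHORDC1, DNAJA1, DNAJB6, HSPA6, HSPA8 and SERPINH1. In the direction groups, in the same order, it was in 0.496%, 0.142%, 0% and 0.336%. The amino acid response element (TGATGNAAT) was in 72 tested promoters (0.538%) and in 1 of 28 integrated stress response genes, FGF21. In the same order of groups it was in 0.441%, 0.236%, 0.455% and 1.08%.

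Of 22321 genes tested, the effects of the 2 tRNAs differed for 12616 (56.5%). The effect of Ser-tRNA_Arg(CCG) was the higher one for 5640 genes (25.3%) and the lower one for 6976 (31.3%), and the difference was at least 2-fold for 3076 (13.8%) and 3102 (13.9%). With library totals the split was 10133 higher and 3587 lower, so that 73.9% of called differences were higher against 44.7% with TMM. Here a gene is called, and said to rise or fall, at a Benjamini-Hochberg adjusted p under 0.05 from edgeR's quasi-likelihood test over all genes. On its own, Ser-tRNA_Arg(CCG) changed 57.3% of tested genes, raising 26.6% and lowering 30.7%, and Arg-tRNA_Cys(GCA) changed 60.7%, raising 30.2% and lowering 30.5%.

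Genes called in both effects numbered 8589 (38.5%), of which 5378 (24.1% of tested genes) moved the same way and 3211 (14.4%) in opposite directions. Among them 2414 rose with both tRNAs (10.8%), 2964 fell with both (13.3%), 1312 rose with Ser-tRNA_Arg(CCG) and fell with Arg-tRNA_Cys(GCA) (5.88%), and 1899 fell with the former and rose with the latter (8.51%). Of the genes raised by Ser-tRNA_Arg(CCG), 40.7% also rose with Arg-tRNA_Cys(GCA) and 22.1% fell, where 30.2% and 30.5% of all tested genes did so. Of the genes it lowered, 43.3% also fell and 27.7% rose. Seen from the other side, 35.8% of the genes raised by Arg-tRNA_Cys(GCA) rose with Ser-tRNA_Arg(CCG) and 28.1% fell, and of the genes it lowered 43.6% fell and 19.3% rose. Across all 22321 genes the 2 effects had a Pearson correlation of 0.079 and a Spearman correlation of 0.127, and across the 10177 genes with a mean of at least 10 CPM 0.228 and 0.253. These correlations are over genes, which share libraries and are not independent replicates.

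**Figure D1:**
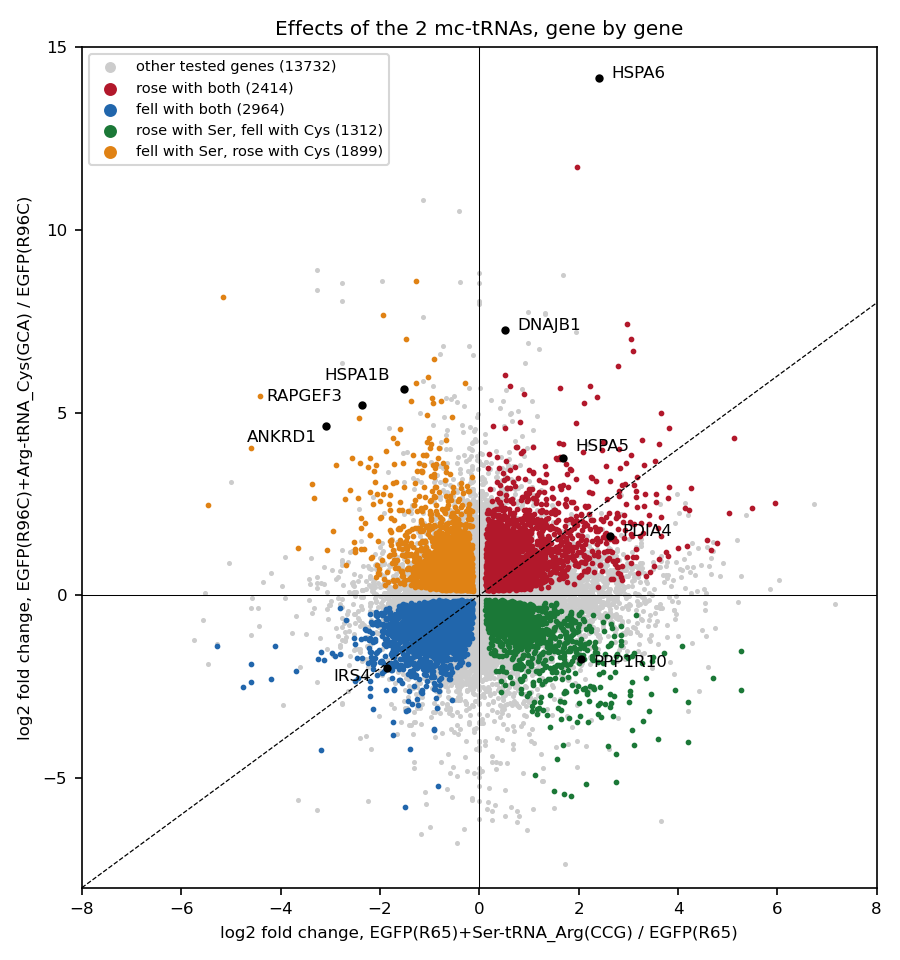
Each point is 1 of 22321 tested genes, with the log2 fold change by Ser-tRNA_Arg(CCG) (3 against 3 libraries) on the x axis and by Arg-tRNA_Cys(GCA) on the y axis. Colours mark the 4 direction groups of genes called in both effects, the dashed line marks equal effects, and the 9 genes named in black lie in different corners, with HSPA6 far above the line and IRS4 close to it.

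The 4 direction groups made up part of the called differences only. Of the 5640 genes with the higher Ser-tRNA_Arg(CCG) effect, 1507 rose with it and were not called with Arg-tRNA_Cys(GCA), 1714 fell with Arg-tRNA_Cys(GCA) alone, and 1312 moved in opposite directions. A further 305 rose with both and 644 fell with both, by unequal amounts. Of the 6976 genes with the lower effect, 1887 rose with Arg-tRNA_Cys(GCA) alone, 1358 fell with Ser-tRNA_Arg(CCG) alone and 1899 moved in opposite directions, while 1040 rose with both and 685 fell with both. Among genes that rose with both, 1069 of 2414 (44.3%) had no called difference, and among genes that fell with both 1635 of 2964 (55.2%).

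The direction groups differed in base composition, which the sorting by direction did not use. They also differed in level, on which being called in both effects depends in part. The median level was 50.4 CPM for genes that rose with both and 16.6 CPM for genes that fell with both. For genes that rose with Ser-tRNA_Arg(CCG) and fell with Arg-tRNA_Cys(GCA) it was 10.8 CPM, for the reverse 37.9 CPM, and over all tested genes 6.44 CPM. The median transcript GC content was 44.1% for genes that fell with Ser-tRNA_Arg(CCG) and rose with Arg-tRNA_Cys(GCA), and 55.5% for genes that did the opposite, against 49.1% over all tested genes. It was 47.0% for genes that rose with both and 52.7% for genes that fell with both. The arginine codon CGG, which the anticodon of Ser-tRNA_Arg(CCG) matches, made up a median 0.735% of codons in the former opposite group and 1.54% in the latter, against 1.08% over all tested genes with a coding sequence. Cysteine codons varied less, with medians of 1.78 to 2.03% in the 4 groups and 1.93% overall. Long non-coding RNAs made up 18.2% of the genes raised by Ser-tRNA_Arg(CCG) and lowered by Arg-tRNA_Cys(GCA), and 4.24% of those moving the other way. They were 7.74% of genes that rose with both, 10.5% of genes that fell with both and 17.9% of tested genes. No set of genes of like level was compared. CGG content and GC content vary together, and which of them goes with the direction was not tested.

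Among genes that moved in opposite directions, the median log2 difference was 1.43 for those raised by Ser-tRNA_Arg(CCG) and lowered by Arg-tRNA_Cys(GCA), and -1.25 for those moving the other way, with extremes of 8.21 and -13.32. In the second group, RAPGEF3, a cyclic AMP-activated exchange factor for Rap GTPases (ENSG00000079337, chromosome 12, 47734367 to 47771040), stood at 8.96, 10.0 and 12.4 CPM with EGFP(R65) and at 1.56, 2.14 and 2.47 CPM with Ser-tRNA_Arg(CCG). With EGFP(R96C) alone it stood at 4.40, 5.14 and 4.99 CPM, and with Arg-tRNA_Cys(GCA) at 186, 175 and 179 CPM. The log2 difference of effects was -7.57 ± 0.25 (SE), from -2.35 ± 0.19 and 5.21 ± 0.17. Neither pair of groups overlapped, which the rule for naming genes of the direction groups required. ANKRD1, a stress-responsive ankyrin repeat protein known as a YAP target (ENSG00000148677, chromosome 10, 90912096 to 90921276), was at 15.3, 14.1 and 11.3 CPM with EGFP(R65) and at 1.63, 2.02 and 1.14 with Ser-tRNA_Arg(CCG). Its levels were 1.40, 1.32 and 1.39 CPM with EGFP(R96C) and 34.9, 35.3 and 32.7 CPM with Arg-tRNA_Cys(GCA). The log2 difference was -7.73 ± 0.43, and here too the groups were apart as required.

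The rule for naming genes, which ranks by the smaller of the 2 changes, added 6 more that fell and then rose. ANXA1, the phospholipid-binding annexin A1, differed by -7.29 ± 0.26 (log2) and the AT-hook protein gene AKNA by -5.96 ± 0.29. AKNA went from 15.99, 18.88 and 20.70 CPM to 3.10, 3.80 and 5.25 CPM with Ser-tRNA_Arg(CCG). With Arg-tRNA_Cys(GCA) it went from 7.55, 7.84 and 9.37 CPM to 114, 111 and 111 CPM. The differences of WFDC21P, TM6SF1 and FIBIN were -4.72 ± 0.45, -4.28 ± 0.28 and -4.12 ± 0.49. TRIML2 had 3 counts over the 3 EGFP(R96C) libraries and 458 with Arg-tRNA_Cys(GCA). Scaled by library totals and not by TMM, this is a ratio of 156.3 (95% counting interval 53.1 to 761). TRIML2 fell with Ser-tRNA_Arg(CCG) from a level of 0.161 to 0.225 CPM.

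PPP1R10, which encodes a nuclear targeting subunit of protein phosphatase 1 (ENSG00000204569, chromosome 6, 30600400 to 30618612), was the most abundant of the 8 named genes that moved the other way. It stood at 39.7, 40.1 and 22.9 CPM with EGFP(R65) and at 166, 161 and 97.8 CPM with Ser-tRNA_Arg(CCG). With EGFP(R96C) it was at 85.9, 91.7 and 85.0 CPM and with Arg-tRNA_Cys(GCA) at 27.8, 28.5 and 22.6 CPM. Replicate 3 was the lowest in both EGFP(R65) groups, and the log2 difference was 3.79 ± 0.27. That neither reporter group overlapped its group with a tRNA was again required by the naming rule. The others were lower in level, at most 8.49 CPM in any library. Since the strand setting of the counting is not known here, the values of TRMT61A-DT and of the antisense transcripts IDI2-AS1, HOXC-AS2 and PDE7B-AS1 named further on may include reads of the opposite strand. TRMT61A-DT, a transcript divergent from a tRNA methyltransferase gene, differed by 3.92 ± 0.22. The cell-surface aminopeptidase ANPEP differed by 4.86 ± 0.34, with 0.574 to 0.676 CPM rising to 3.44 to 4.10 with Ser-tRNA_Arg(CCG) and 1.79 to 2.64 falling to 0.307 to 0.734 with Arg-tRNA_Cys(GCA). SLC7A9, a subunit of the cystine and basic amino acid transporter of the kidney, differed by 3.73 ± 0.41. BTN1A1, TRIM72, LINC01588 and DNAJB13 differed by 3.57 to 4.87.

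**Figure D2:**
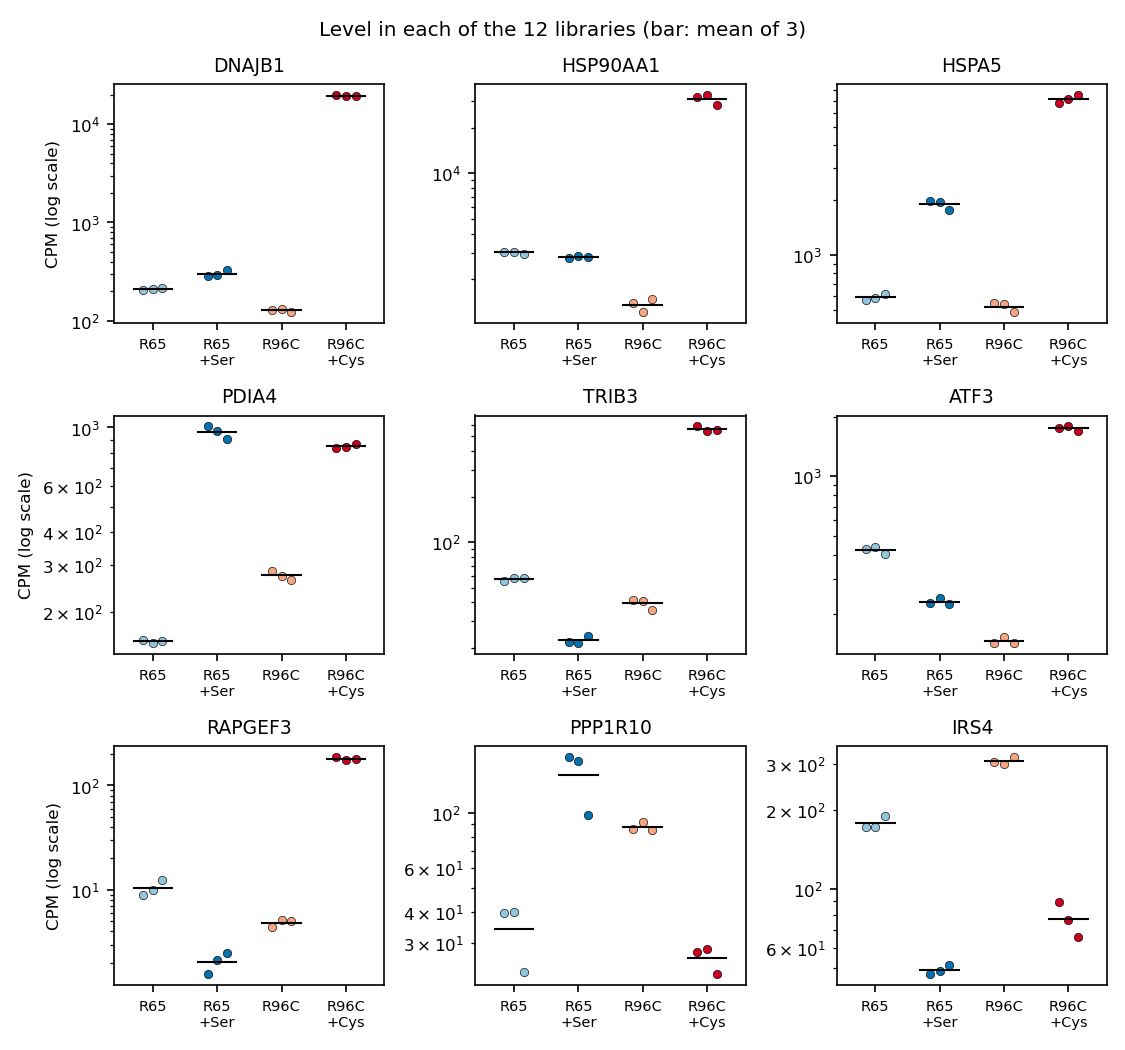
The level of 9 genes in each of the 12 libraries, in CPM on a log axis that differs between panels, with a bar at the mean of 3. DNAJB1 and HSP90AA1 are far higher with Arg-tRNA_Cys(GCA) than in the other 3 groups, HSPA5 and PDIA4 are raised in both groups with a tRNA, TRIB3, ATF3 and RAPGEF3 move down and up, PPP1R10 up and down, and IRS4 down in both.

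Heat shock genes, not all of them cytosolic, separated the 2 tRNAs most. Of 33 tested list members, 31 rose with Arg-tRNA_Cys(GCA) and 1 fell, at a median log2 change of 3.56. With Ser-tRNA_Arg(CCG) 11 rose and 11 fell, at a median of -0.08. These counts and those of the lists below are to be held against the shares of all tested genes. The difference was lower for 31.3% of all tested genes and higher for 25.3%. With Ser-tRNA_Arg(CCG) 26.6% rose and 30.7% fell, and with Arg-tRNA_Cys(GCA) 30.2% and 30.5%. The 11 rises and 11 falls lie near those shares. The difference was lower for 31 of 33 and higher for 1 (HSPBP1, a nucleotide exchange factor of HSP70, at 0.42), and HSPA2 was not called. The list took 0.968 to 1.02% of all counts with EGFP(R96C) and a mean of 11.1% (SD 0.153) with Arg-tRNA_Cys(GCA), and 1.47% in each EGFP(R65) library against 1.39 to 1.41% with Ser-tRNA_Arg(CCG). With library totals the list again had 31 lower and 1 higher difference.

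The inducible HSP70 genes moved apart in 2 ways. HSPA1B (ENSG00000204388, chromosome 6, 31827735 to 31830255) was at 1042, 1025 and 1263 CPM with EGFP(R65) and at 366, 357 and 442 with Ser-tRNA_Arg(CCG), and at 292, 257 and 282 CPM with EGFP(R96C) and 13926, 13730 and 14053 with Arg-tRNA_Cys(GCA). It fell with the first tRNA, rose with the second, and differed by -7.16 ± 0.27 (log2) with no overlap of groups. HSPA1A, whose promoter is shown above and whose coding sequence is nearly the same, followed it with changes of -1.48 ± 0.20 and 7.02 ± 0.18, and the split of reads within this pair is uncertain. HSPA6 (ENSG00000173110, chromosome 1, 161524540 to 161526910) rose with both: from 9.91, 10.5 and 7.17 CPM to 42.8, 49.4 and 54.0 with Ser-tRNA_Arg(CCG), and from 0.381, 0.536 and 0.487 to 9017, 8302 and 8685 with Arg-tRNA_Cys(GCA). Its difference of -11.75 ± 0.41 was the largest of the list, and it shares sequence with HSPA7.

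The chaperone genes of other classes named here also rose far more with Arg-tRNA_Cys(GCA), by different amounts. DNAJB1, of the HSP40 family (ENSG00000132002, chromosome 19, 14514770 to 14529770), stood at 206, 210 and 213 CPM with EGFP(R65), 283, 289 and 326 with Ser-tRNA_Arg(CCG), 128.1, 131.5 and 121.8 with EGFP(R96C) and 19741, 19492 and 19538 with Arg-tRNA_Cys(GCA). Both rises were called, and they differed by -6.75 ± 0.12. The cytosolic HSP90 gene HSP90AA1 (chromosome 14, 102080738 to 102139699) was at 3028, 3029 and 2956 CPM with EGFP(R65) and 2746, 2842 and 2796 with Ser-tRNA_Arg(CCG), a change of -0.10 ± 0.08 that was not called (adjusted p = 0.256). It went from 1388, 1214 and 1480 CPM to 31639, 32603 and 28236 CPM with Arg-tRNA_Cys(GCA), and the difference was -4.61 ± 0.11. HSPB1, a small heat shock protein gene with its promoter shown above, had a like difference of -4.62 ± 0.11. The HSP110 gene HSPH1 differed by -6.09 ± 0.13, the HSP70 co-chaperone BAG3 by -5.09 ± 0.13 and the mitochondrial chaperonin HSPD1 by -3.39 ± 0.08. CRYAB, a small heat shock protein gene of lens and muscle, had the second-largest difference of the list at -10.92 ± 1.28. It was near the detection limit in 3 groups, which limits the size of this value. Over 3 libraries it had 20 counts with EGFP(R65), 15 with Ser-tRNA_Arg(CCG) and 13 with EGFP(R96C), against 13075 with Arg-tRNA_Cys(GCA). Its change of -0.41 ± 0.85 with Ser-tRNA_Arg(CCG) was not called. HSF1, the main heat shock factor, was at 66.2 to 98.4 CPM in all 12 libraries and was called in neither effect nor in their difference (-0.11 ± 0.09, adjusted p = 0.338), which library totals turned to 0.40 (adjusted p = 0.000669).

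The TRiC chaperonin, a ring of 8 different subunits that folds actin and tubulin, followed the heat shock genes at a smaller size. All 8 subunits rose with Arg-tRNA_Cys(GCA), at a median of 1.248, while 2 rose and 4 fell with Ser-tRNA_Arg(CCG). The 2 rises lie near the 26.6% of all tested genes that rose with it. The difference was lower for all 8 (7 with library totals), against 31.3% of all tested genes. TCP1, its alpha subunit, was at 777, 785 and 798 CPM with EGFP(R65) and 695, 699 and 663 with Ser-tRNA_Arg(CCG), and at 496, 469 and 400 CPM with EGFP(R96C) and 3147, 3359 and 3291 with Arg-tRNA_Cys(GCA). The groups were apart in both comparisons, and the difference of -3.04 ± 0.10 was the largest of the 8. Its fall of -0.20 ± 0.07 with Ser-tRNA_Arg(CCG) lost its call without replicate 3 of that group (adjusted p = 0.0509) and with a stricter filter on low counts (adjusted p = 0.0592). CCT6A, CCT3 and CCT4 differed by -1.70 to -1.54. The rise of CCT4 with Ser-tRNA_Arg(CCG), by 0.14 ± 0.06, lost its call with no filter on low counts (adjusted p = 0.0756). That call was also lost without any 1 of the EGFP(R65) replicates or without Ser-tRNA_Arg(CCG) replicate 1 or 2 (adjusted p 0.063 to 0.092).

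Unlike these, the ER unfolded protein response list rose with both tRNAs. Of 28 tested, 26 rose and 1 fell with Ser-tRNA_Arg(CCG), at a median of 1.04, and 28 rose with Arg-tRNA_Cys(GCA), at a median of 1.62 (26 rose and 0 fell with library totals). All 26 rises with the first were among the rises with the second, where 10.8% of tested genes rose with both. The sizes still differed: the Ser-tRNA_Arg(CCG) effect was lower for 23 of 28 and higher for 3, which became 16 and 8 with library totals. Over all tested genes it was lower for 31.3% and higher for 25.3% with TMM. The list took 0.542 to 0.554% of counts with EGFP(R65) and 1.22 to 1.33% with Ser-tRNA_Arg(CCG), and 0.562 to 0.575% with EGFP(R96C) and 1.75 to 1.82% with Arg-tRNA_Cys(GCA).

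HSPA5, the main ER chaperone BiP (ENSG00000044574, chromosome 9, 125234853 to 125241330), stood at 566, 587 and 612 CPM with EGFP(R65) and 1988, 1950 and 1758 with Ser-tRNA_Arg(CCG), and at 546, 538 and 488 CPM with EGFP(R96C) and 6767, 7108 and 7483 with Arg-tRNA_Cys(GCA). The 2 reporter groups lay close together while the 2 groups with a tRNA lay apart, and the difference was -2.07 ± 0.10. HERPUD1, of ER-associated degradation, and the transcription factor XBP1 differed by -2.16 ± 0.11 and -1.91 ± 0.10. SEL1L, an adaptor of the HRD1 ubiquitin ligase, differed by -1.87 ± 0.11.

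PDIA4, a protein disulfide isomerase (ENSG00000155660, chromosome 7, 149003062 to 149028641), went the other way. It stood at 156.2, 151.99 and 154.98 CPM with EGFP(R65) and 1010, 969 and 906 with Ser-tRNA_Arg(CCG), and at 285, 274 and 265 CPM with EGFP(R96C) and 836, 841 and 865 with Arg-tRNA_Cys(GCA). All groups were apart, and the difference of 1.01 ± 0.09 was higher (adjusted p = 6.45e-12). CRELD2, whose promoter is shown above, and MANF, both secreted or ER-resident stress proteins, were higher as well, by 0.91 ± 0.10 and 0.61 ± 0.12. HYOU1, an ER HSP70 relative, and SYVN1, the HRD1 ligase, showed no called difference, at 0.01 ± 0.12 and -0.06 ± 0.09. DERL1, a channel component of ER-associated degradation, was the 1 member that fell with Ser-tRNA_Arg(CCG), by 0.22 on the log2 scale, and rose with Arg-tRNA_Cys(GCA), by 0.50.

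**Figure D3:**
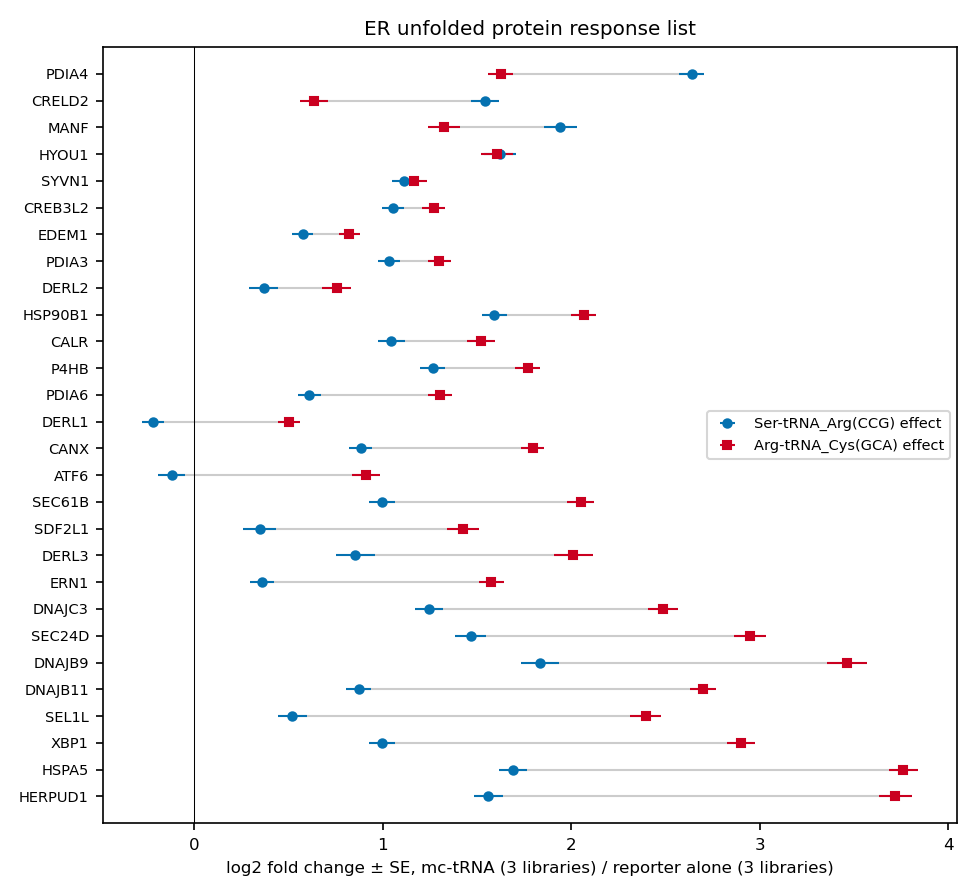
The log2 fold change ± SE of the 28 unfolded protein response genes with Ser-tRNA_Arg(CCG) (circles) and Arg-tRNA_Cys(GCA) (squares), each from 3 against 3 libraries, ordered by the difference. PDIA4, CRELD2 and MANF at the top have the larger change with Ser-tRNA_Arg(CCG), and the distance between the symbols grows to more than 2 units at HSPA5 and HERPUD1.

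The integrated stress response list fell in part with one tRNA and rose almost throughout with the other. Of 37 tested members, 20 fell and 4 rose with Ser-tRNA_Arg(CCG), at a median of -0.43, while 36 rose and 1 fell with Arg-tRNA_Cys(GCA), at a median of 1.66. As single genes, 19 of 37 fell with the former and rose with the latter, where 8.51% of tested genes did so. The difference was lower for 35 and higher for 0 (34 and 2 with library totals, which left 33 rises and 3 falls with Arg-tRNA_Cys(GCA)). Over all tested genes it was lower for 31.3% and higher for 25.3% with TMM. PYCR1 and ALDH18A1, both of proline synthesis, were the 2 members with no called difference.

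Regulators of the response are described first. TRIB3, a pseudokinase induced by ATF4 and CHOP (ENSG00000101255, chromosome 20, 362835 to 397559), stood at 55.1, 58.0 and 57.6 CPM with EGFP(R65) and 22.0, 21.5 and 24.2 with Ser-tRNA_Arg(CCG), and at 41.2, 41.2 and 35.8 CPM with EGFP(R96C) and 584, 542 and 550 with Arg-tRNA_Cys(GCA). Both pairs of groups were apart, in opposite directions, and the difference was -5.16 ± 0.31. ATF3, a stress transcription factor (ENSG00000162772, chromosome 1, 212565334 to 212620777), was at 427, 437 and 403 CPM and then 228, 243 and 224 with Ser-tRNA_Arg(CCG), and at 142.6, 152.06 and 142.2 CPM and then 1756, 1791 and 1703 with Arg-tRNA_Cys(GCA). Its difference was -4.46 ± 0.12, and CEBPG, which pairs with ATF4 on DNA, followed with -3.81 ± 0.14. ATF4 itself (ENSG00000128272, chromosome 22) rose with both, from 696 to 744 CPM to 878 to 946 with Ser-tRNA_Arg(CCG) and from 738 to 844 CPM to 1740 to 1796 with Arg-tRNA_Cys(GCA), differing by -0.86 ± 0.09. DDIT3, which encodes CHOP, rose by 0.39 ± 0.14 and 3.48 ± 0.15, the first of which lost its call without any 1 of the EGFP(R65) replicates or without Ser-tRNA_Arg(CCG) replicate 1 or 2 (adjusted p 0.0541 to 0.0778). That call was also lost with no filter on low counts (adjusted p = 0.058). ATF5 and ALDH1L2 were the remaining members that rose with both. PPP1R15A, the inducible subunit that returns eIF2alpha to its unphosphorylated state, was not called with Ser-tRNA_Arg(CCG) at -0.04 ± 0.09 and rose by 3.70 ± 0.10 with Arg-tRNA_Cys(GCA).

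Genes of amino acid supply within the list followed. ASNS, the asparagine synthetase (ENSG00000070669, chromosome 7, 97852118 to 97872542), stood at 422, 435 and 517 CPM with EGFP(R65) and 330, 332 and 357 with Ser-tRNA_Arg(CCG), and at 461, 455 and 395 CPM with EGFP(R96C) and 1504, 1554 and 1622 with Arg-tRNA_Cys(GCA). The reporter groups overlapped each other, whereas the 2 groups with a tRNA lay on opposite sides of them, and the difference was -2.27 ± 0.18. PSAT1 and PSPH of serine synthesis differed by -2.63 ± 0.11 and by -2.09, and the glutathione-degrading enzyme CHAC1 by -4.84 ± 0.33. FGF21, a secreted metabolic hormone, had the largest difference of the list at -5.17 ± 0.42, although its change of -0.65 ± 0.34 with Ser-tRNA_Arg(CCG) was not called.

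**Figure D4:**
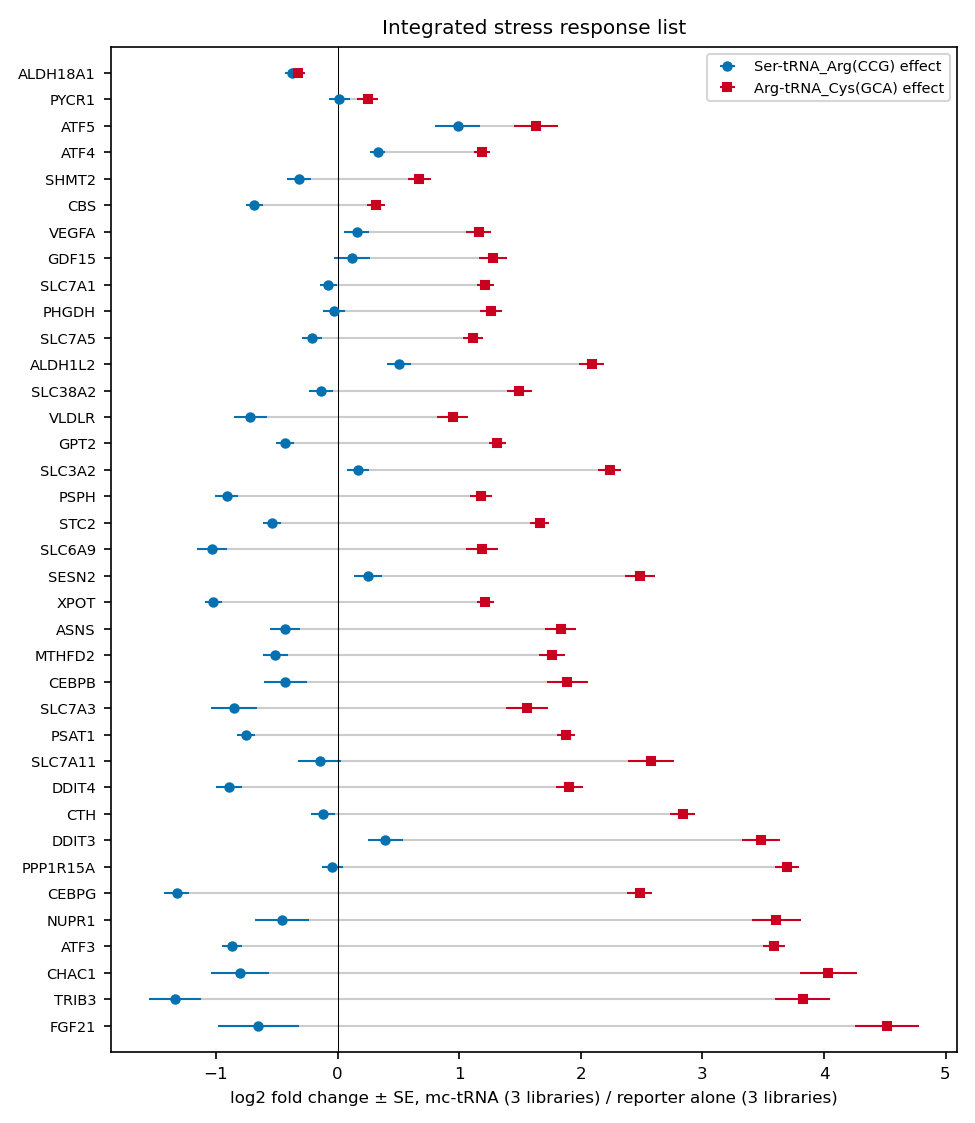
The log2 fold change ± SE of the 37 integrated stress response genes with Ser-tRNA_Arg(CCG) (circles) and Arg-tRNA_Cys(GCA) (squares), each from 3 against 3 libraries, ordered by the difference. Most circles lie left of 0 and all squares but that of ALDH18A1 lie right of it.

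Among the machinery of tRNA charging, cytosolic and mitochondrial synthetases parted. Of 23 cytosolic synthetases and cofactors, 11 fell and 5 rose with Ser-tRNA_Arg(CCG), and 19 rose and 3 fell with Arg-tRNA_Cys(GCA) (13 and 8 with library totals). Over all tested genes 30.7% fell and 26.6% rose with the first, and 30.5% fell and 30.2% rose with the second, so the 5 rises lie near the share of all genes. The difference was lower for 20 and higher for 3 (FARSA, VARS1 and QARS1), against 31.3% and 25.3% of all tested genes. GARS1, the glycyl-tRNA synthetase, was at 442 to 465 CPM with EGFP(R65) and 411 to 420 with Ser-tRNA_Arg(CCG), and went from 363 to 420 CPM to 1724 to 1838 with Arg-tRNA_Cys(GCA). Its difference of -2.29 ± 0.09 was followed by NARS1 (-2.10 ± 0.09) and TARS1 (-2.04 ± 0.09). The synthetases of the amino acids in play here also differed: SARS1 by -1.19, CARS1 by -1.39 and RARS1 by -0.77, each lower. Of 17 mitochondrial synthetases, 9 fell and 1 rose with Ser-tRNA_Arg(CCG), 12 fell and 3 rose with Arg-tRNA_Cys(GCA), and 7 fell with both (13.3% of all tested genes). The 1 that moved from up to down was PARS2, with a difference of 1.68 ± 0.13.

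Enzymes that process and modify tRNA mostly fell with Ser-tRNA_Arg(CCG), 43 of 67 falling and 6 rising, and were mixed with Arg-tRNA_Cys(GCA), 28 falling and 19 rising (51 and 11 with library totals). The 19 rises lie near the 30.2% of all tested genes. Of the 67, 20 fell with both and 12 fell with the first and rose with the second, against 13.3% and 8.51% of all tested genes. XPOT, the exporter of tRNA from the nucleus (chromosome 12, 64404350 to 64451127), stood at 341, 335 and 374 CPM with EGFP(R65) and 163, 170 and 184 with Ser-tRNA_Arg(CCG), and at 293, 289 and 279 CPM with EGFP(R96C) and 661, 699 and 639 with Arg-tRNA_Cys(GCA). The groups were apart in both and the difference was -2.24 ± 0.10. TYW3 of wybutosine synthesis, the splicing endonuclease subunit TSEN15 and the methyltransferase TRMT11 differed by -2.14 to -1.84.

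Subunits of the 26S proteasome, which degrades ubiquitin-tagged protein, also moved apart. With Ser-tRNA_Arg(CCG) 16 of 31 fell and 3 rose, at a median of -0.15, and with Arg-tRNA_Cys(GCA) 25 rose and 0 fell, at a median of 0.45, which flipped to -0.09 with 13 rises and 13 falls under library totals. Over all tested genes 30.7% fell with Ser-tRNA_Arg(CCG) and 30.2% rose with Arg-tRNA_Cys(GCA). The difference was lower for 25 subunits and higher for 0 (17 and 8 with library totals), against 31.3% and 25.3% of all tested genes with TMM. PSMD14, the deubiquitinase of the lid, stood at 169 to 185 CPM with EGFP(R65) and 113 to 124 with Ser-tRNA_Arg(CCG), and went from 109 to 118 CPM to 254 to 262 with Arg-tRNA_Cys(GCA). Its difference of -1.75 ± 0.09 was the largest of the list, ahead of PSMD6, PSMC1 and PSMA6 at -1.49 to -1.46.

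Targets of NRF2, the regulator of antioxidant genes, fell with one tRNA and were mixed with the other. Of 19, 10 fell and 1 rose with Ser-tRNA_Arg(CCG). With Arg-tRNA_Cys(GCA) 12 rose and 6 fell (8 and 10 with library totals). Those 6 falls lie near the 30.5% of all tested genes that fell with it. HMOX1, the inducible haem oxygenase (chromosome 22, 35380361 to 35394214), was at 34.8, 33.0 and 28.1 CPM with EGFP(R65) and 16.4, 16.2 and 18.3 with Ser-tRNA_Arg(CCG), and at 38.0, 37.1 and 28.7 CPM with EGFP(R96C) and 347, 317 and 311 with Arg-tRNA_Cys(GCA). The groups were apart and the difference was -4.15 ± 0.23. ME1, SLC7A11 and OSGIN1 differed by -3.18 to -2.41. Immediate early genes, the first transcripts induced by growth factors and stress, rose more often than they fell with both, 20 against 9 of 35 with Ser-tRNA_Arg(CCG) and 24 against 2 with Arg-tRNA_Cys(GCA) (18 and 10 with library totals), and 15 rose with both. Over all tested genes 10.8% rose with both, and the 9 falls lie near the 30.7% that fell with Ser-tRNA_Arg(CCG). DUSP1 and IER5 differed by -3.42 ± 0.13 and -3.31 ± 0.11. Next to ATF3, CCN1 (-2.59 ± 0.15) was the other of the 4 leading members that fell with Ser-tRNA_Arg(CCG). EGR3 and JUNB, by contrast, had the higher effect with Ser-tRNA_Arg(CCG), at 1.13 and 0.84.

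**Figure D5:**
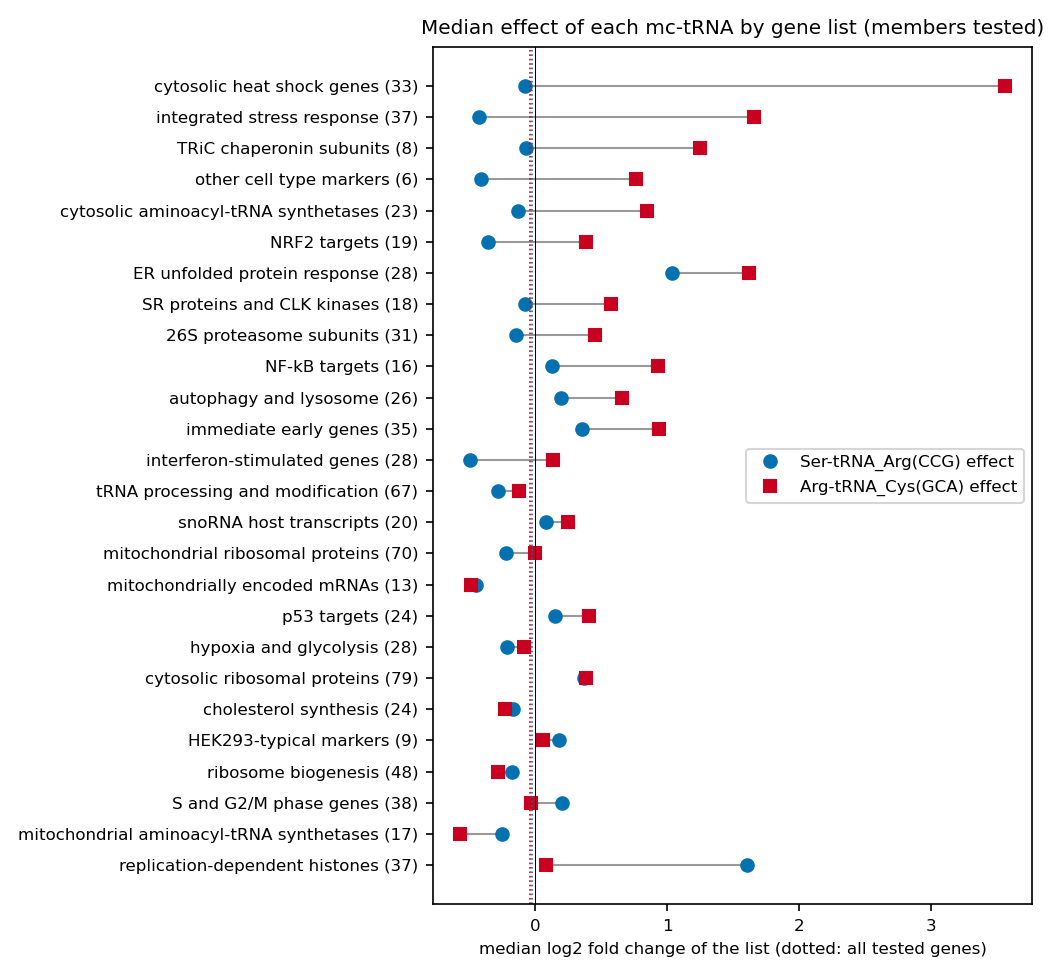
The median log2 fold change of the tested members (number in parentheses) of 26 gene lists with Ser-tRNA_Arg(CCG) (circles) and Arg-tRNA_Cys(GCA) (squares), with dotted lines at the medians of all tested genes, scaled by TMM. The gap is widest for heat shock genes, runs the other way for replication-dependent histones, and is near 0 for ribosomal proteins and mitochondrially encoded mRNAs.

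Some groups moved alike with TMM scaling. Of 79 cytosolic ribosomal protein genes, 58 rose and 1 fell with Ser-tRNA_Arg(CCG), and 59 rose and 2 fell with Arg-tRNA_Cys(GCA), at medians of 0.37 and 0.39. The difference was called for 23 of 79 (11 higher and 12 lower), where 56.5% of all tested genes were called. With library totals the rise with Arg-tRNA_Cys(GCA) turned into a median of -0.15, with 3 rises and 33 falls. The difference was then higher for 59 and lower for 2, at a median of 0.49. So both their direction with this tRNA and the likeness of the 2 effects depend on the scaling. Largest among them were the differences of RPL17 (-1.61 ± 0.12) and RPS10 (-1.06 ± 0.18) on the lower side and RPL23 (0.91 ± 0.17) on the higher one. Of the 13 mitochondrially encoded mRNAs, 12 fell with Ser-tRNA_Arg(CCG), 10 with Arg-tRNA_Cys(GCA) (13 with library totals) and 10 with both (13.3% of all tested genes). With library totals their difference was higher for 12 and lower for 0. With TMM it was higher for 0 and lower for 2, against 25.3% and 31.3% of all tested genes. The differences of MT-ND4 and MT-CO2 were called, at -0.28 ± 0.09 and -0.24 ± 0.09, and both turned to the opposite sign with library totals (0.23 and 0.27). Both calls were lost with no filter, with a stricter filter and with only the 12 libraries (adjusted p 0.0811 to 0.304), and that of MT-CO2 also with RLE factors and DESeq2 (adjusted p = 0.0746 and 0.0733). Without EGFP(R96C) replicate 2 or Arg-tRNA_Cys(GCA) replicate 2 neither was called (adjusted p 0.084 to 0.232), and that of MT-CO2 was also lost without Ser-tRNA_Arg(CCG) replicate 3, EGFP(R96C) replicate 3 or Arg-tRNA_Cys(GCA) replicate 1 or 3 (adjusted p 0.0501 to 0.136). MT-CO3, a cytochrome c oxidase subunit, was at 2084 to 2253 CPM with EGFP(R65) and 1215 to 1342 with Ser-tRNA_Arg(CCG), and went from 4259 to 4850 CPM to 2464 to 2507 with Arg-tRNA_Cys(GCA). Its changes of -0.74 ± 0.07 and -0.87 ± 0.07 gave a difference of 0.13 ± 0.10 that was not called.

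IRS4, an insulin receptor substrate abundant in HEK293 cells (ENSG00000133124, chromosome X, 108732482 to 108736409), was the most abundant of the 8 named genes that fell with both. It stood at 172, 172 and 191 CPM with EGFP(R65) and 47.5, 48.9 and 51.4 with Ser-tRNA_Arg(CCG), and at 305, 299 and 317 CPM with EGFP(R96C) and 89.1, 76.6 and 65.8 with Arg-tRNA_Cys(GCA). The falls of -1.85 ± 0.09 and -1.99 ± 0.08 differed by 0.14 ± 0.12, which was not called (adjusted p = 0.322). It was called, as a smaller fall with Ser-tRNA_Arg(CCG), at 0.65 with library totals (adjusted p = 0.000136), at 0.27 with only the 12 libraries (adjusted p = 0.0458) and at 0.31 without Arg-tRNA_Cys(GCA) replicate 1 (adjusted p = 0.0202). TERT, the telomerase reverse transcriptase, fell by 2.24 and by 1.86 on the log2 scale, and the mitochondrial rRNA methyltransferase MRM1 by 1.77 and by 1.96. FDXACB1, PM20D1, SERTM1, CCDC78 and ZNF346-IT1 fell with both at lower levels, and with TMM none of the 8 had a called difference (-0.63 to 0.73). With library totals those of MRM1 and PM20D1 were also called, at 0.70 and 1.24 (adjusted p = 0.00289 and 0.0193), and that of PM20D1 was called without Ser-tRNA_Arg(CCG) replicate 1, at 1.06 (adjusted p = 0.044).

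The 8 named genes that rose with both were, apart from HSPA6, of low level. ALB, serum albumin of the liver (chromosome 4, 73397114 to 73421412), was at 0.518, 0.675 and 0.413 CPM with EGFP(R65) and 9.38, 10.2 and 8.61 with Ser-tRNA_Arg(CCG), and at 0.238, 0.112 and 0.101 CPM with EGFP(R96C) and 0.675, 0.959 and 0.675 with Arg-tRNA_Cys(GCA). It was the 1 of the 8 with the higher effect of Ser-tRNA_Arg(CCG), by 1.74 ± 0.52, or by 1.29 without EGFP(R96C) replicate 1, which ended the call (adjusted p = 0.0768). DMGDH and HGD, enzymes of choline and tyrosine breakdown, rose by 2.36 and 3.13 and by 2.64 and 3.14. PEX5L, PAPPA2, TMEM31 and XKR7 completed the 8. PEX5L, DMGDH and XKR7 had lower effects with Ser-tRNA_Arg(CCG), while PAPPA2, HGD and TMEM31 had no called difference. The differences of DMGDH and XKR7, -0.77 ± 0.27 and -0.94 ± 0.37, lost their call with library totals (adjusted p = 0.423 and 0.331). The call of XKR7 was also lost with a stricter filter (adjusted p = 0.0622). Leaving out EGFP(R65) replicate 3 or Arg-tRNA_Cys(GCA) replicate 2 also ended that of DMGDH (adjusted p = 0.0547 and 0.0594), and so did, for XKR7, leaving out EGFP(R65) replicate 1, Ser-tRNA_Arg(CCG) replicate 2 or 3, EGFP(R96C) replicate 2 or Arg-tRNA_Cys(GCA) replicate 2 or 3 (adjusted p 0.0592 to 0.15).

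Replication-dependent histone genes rose more often with Ser-tRNA_Arg(CCG) than the share of all tested genes (26.6%), and with Arg-tRNA_Cys(GCA) at about that share (30.2%). In these polyA-selected libraries their counts cover polyadenylated transcripts only. Of 37 tested, 24 rose and 1 fell with Ser-tRNA_Arg(CCG), at a median of 1.60, and 11 rose and 7 fell with Arg-tRNA_Cys(GCA), at a median of 0.08, or -0.47 with 6 rises and 12 falls under library totals. The difference was higher for 24 and lower for 1 (H1-4), against 25.3% and 31.3% of all tested genes. H2BC5 (ENSG00000158373, chromosome 6, 26158146 to 26171349) stood at 2.93, 3.10 and 2.80 CPM with EGFP(R65) and 22.0, 21.4 and 20.4 with Ser-tRNA_Arg(CCG), and at 6.29, 8.51 and 6.60 CPM with EGFP(R96C) and 10.4, 10.4 and 9.29 with Arg-tRNA_Cys(GCA). It rose with both without overlap, and the difference was 2.36 ± 0.21, although its change with Arg-tRNA_Cys(GCA) turned to -0.05 with library totals. H2BC6 and H2AC13 differed by 2.83 ± 0.29 and 2.81 ± 0.35, and their changes with Arg-tRNA_Cys(GCA) were not called. That of H2AC13 was a called fall of -1.03 with library totals (adjusted p = 0.000298), of -0.56 with a stricter filter (adjusted p = 0.0313), of -0.58 with only the 12 libraries (adjusted p = 0.039) and of -0.64 without EGFP(R96C) replicate 3 (adjusted p = 0.0353).

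Single genes moved by 1 of the 2 tRNAs, with the other effect within 0.25 log2 units of 0, were named in both directions. Those with the higher Ser-tRNA_Arg(CCG) effect were of low level. MADCAM1, an adhesion molecule of mucosal vessels, was at 0.436 to 0.700 CPM with EGFP(R65) and 4.21 to 5.38 with Ser-tRNA_Arg(CCG), and at 0.762 to 1.41 CPM with EGFP(R96C) and 1.04 to 1.23 with Arg-tRNA_Cys(GCA). The latter groups overlapped, and the difference was 3.17 ± 0.32, although library totals turned the Arg-tRNA_Cys(GCA) effect to -0.52 (adjusted p = 0.0419). The leukocyte integrin ITGAM, coagulation factor gene F8, ALLC, IDI2-AS1 and LINC01166 were likewise raised by Ser-tRNA_Arg(CCG) and differed by 2.87 to 3.55. HOXC-AS2 and OR7E47P instead fell with Arg-tRNA_Cys(GCA). OR7E47P, an olfactory receptor pseudogene, had 62 counts over 3 EGFP(R96C) libraries and 2 with the tRNA. By library totals, not TMM, this is a ratio of 30.3 (95% counting interval 8.04 to 256). OR7E47P stood at 15.8 to 19.2 CPM in all 6 EGFP(R65) libraries.

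On the lower side, the 8 genes were raised by Arg-tRNA_Cys(GCA) and not called with Ser-tRNA_Arg(CCG), HSPB1 and HSP90AA1 among them. MAP2, a neuronal microtubule protein (ENSG00000078018, chromosome 2, 209424058 to 209734118), stood at 2.27, 2.10 and 1.81 CPM with EGFP(R65) and 2.34, 1.80 and 2.08 with Ser-tRNA_Arg(CCG), and at 0.452, 0.760 and 0.453 CPM with EGFP(R96C) and 31.1, 30.1 and 23.8 with Arg-tRNA_Cys(GCA). The first 2 groups overlapped, the last 2 did not, as the naming rule required, and the difference was -5.67 ± 0.23. SCG2, secretogranin II, differed by -5.12 ± 0.40, FILIP1L by -4.79 ± 0.34 and LINC01068 by -4.91 ± 0.40. The reporters alone were unlike for FILIP1L (mean 12.5 CPM with EGFP(R65) and 1.75 with EGFP(R96C)) and for LINC01068 (3.13 and 0.136 CPM). With Arg-tRNA_Cys(GCA) the means of these 2 genes were 43.1 and 4.06 CPM. SYT4 and PDE7B-AS1, near the detection limit without the tRNA, differed by -7.03 ± 0.99 and -6.69 ± 1.05.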

How the data were processed

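Messenger RNA was measured in HEK293 cells, and 12 of 30 libraries enter the comparison, grouped by their labelled treatment. The authors aligned and counted reads on hg38 with STAR, SAMtools and featureCounts, per the submitters' processing notes. Tool versions, annotation and strand setting: not given in the sources used here. Each deposited table holds unnormalized counts, for 58278 genes and 92 ERCC sequences. The test was edgeR's robust quasi-likelihood test (version 4.0.16, R 4.3.3, TMM factors, filterByExpr) as 10 group means over all 30 libraries with 20 residual degrees of freedom, which pools the spread; the biological coefficient of variation was 8.24%. The difference of effects is one contrast of that fit; the fitting code was checked on simulated counts. P-values are Benjamini-Hochberg adjusted over 22321 genes. Within groups, replicate pairs differed by 2.08 to 36.7 chi-square per degree of freedom, so none is a duplicate. Counting intervals and the floor of 3 counts cover counting error only. Coordinates are from GENCODE 29 (GRCh38), where a gene's versioned identifier was present. Residue shares came from GENCODE coding sequences.

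Genes were named by rule: the 8 largest in each direction group by the smaller change, the 8 largest differences with 1 effect within 0.25 of 0, 4 per gene list and 10 set genes, with a mean of at least 1 CPM; 1 gene the rule names is not reported here. In the direction groups and the sets with 1 effect near 0, libraries with and without the tRNA also had to be apart in CPM, in each effect ranked on. The rule, the members and the 26 gene lists were chosen with earlier results of these data known. LUM, PECAM1, HSPBP1 and the other list members outside this rule were named after their values were seen. Alternatives were RLE factors, library totals, TMM without heat shock genes, other filters, DESeq2 1.42.0, 12 libraries only, a replicate block and leaving out each library.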

Additional observations from a re-analysis of the deposited data

Results flagged for a closer look

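The contrast itself tests whether the effects of 2 tRNAs differ, and it returned 5640 genes with the higher and 6976 with the lower effect of Ser-tRNA_Arg(CCG) under TMM. ERCC spike-in sequences, which entered no test, had 20 to 82 counts in the 6 EGFP(R96C) libraries and 0 in the 6 EGFP(R65) libraries.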

How the results depend on the processing

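Of the choices tried, scaling by library totals changed the counts by more than 1.5 times. With it the difference was higher for 10133 and lower for 3587 genes, Arg-tRNA_Cys(GCA) raised 3143 and lowered 12401, and the direction groups held 1173 (rose with both), 5117 (fell with both), 2624 (rose with Ser-tRNA_Arg(CCG), fell with Arg-tRNA_Cys(GCA)) and 842 genes (the reverse). Of the 1312 and 1899 genes in the last 2 groups under TMM, 1228 and 772 were shared. It turned the difference of MT-ND4 to 0.23, MT-CO2 to 0.27, MT-ND5 to 0.33 and HSF1 to 0.40, and the Arg-tRNA_Cys(GCA) effect of MADCAM1 to -0.52, MT-ND4 to -0.51, H2BC5 to -0.0502, ISG20 to -0.47, ENO2 to -0.41 and SRSF12 to -0.38. Median differences turned to 0.26 for tRNA processing, 0.36 for mitochondrially encoded mRNAs, 0.39 for p53 targets, 0.13 for interferon-stimulated genes, 0.30 for mitochondrial ribosomal proteins and 0.28 for snoRNA hosts. These shifts follow from the scaling itself. The median of p53 targets also turned to 0.0131 with a stricter filter and to 0.00388 with only 12 libraries, and that of other cell markers to 0.37 with the stricter filter, where fewer members are tested.

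All other alternatives left the 10 counts within 1.5 times. Which side held more genes did change: against 5640 higher and 6976 lower differences, only the 12 libraries gave 6294 and 5871 and no filter 6304 and 6157, while DESeq2 gave 6037 and 6622. The 2 opposite groups, 1312 and 1899 genes, became 1565 and 1541 with only the 12 libraries and 1502 and 1494 with a stricter filter. Leaving out 1 library at a time gave 5296 to 5940 higher and 6269 to 6930 lower differences, 5400 to 6312 rises and 6237 to 7006 falls with Ser-tRNA_Arg(CCG), and 6041 to 6805 rises and 6382 to 6914 falls with Arg-tRNA_Cys(GCA). The direction groups ranged from 2198 to 2409, 2760 to 2990, 1180 to 1402 and 1634 to 1908 genes. The labels number the replicates 1 to 3 in each group. Samples with the same number deviated from their group means with correlations of 0.026 to 0.125 for Ser-tRNA_Arg(CCG) and -0.074 to 0.024 for Arg-tRNA_Cys(GCA). For samples with different numbers these were -0.089 to 0.055 and -0.072 to 0.102. Whether the numbers pair the samples cannot be told from these values. A replicate block gave 5699 higher and 7015 lower differences, 6055 rises and 6929 falls with Ser-tRNA_Arg(CCG), 6792 and 6783 with Arg-tRNA_Cys(GCA), and 2484, 3053, 1361 and 1963 genes in the direction groups. Low counts limit the fold changes of genes under 1 CPM in a reporter group.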

Other observations

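The shares of all tested genes to hold these counts against are 26.6% rising and 30.7% falling with Ser-tRNA_Arg(CCG), and 30.2% and 30.5% with Arg-tRNA_Cys(GCA). Of 38 tested S and G2/M genes, 19 rose and 6 fell with Ser-tRNA_Arg(CCG), while 12 rose and 16 fell with Arg-tRNA_Cys(GCA) (3 and 28 with library totals), and 7 rose with the first and fell with the second (5.88% of all tested genes). The 12 rises lie near the share of all genes. HMMR, CDC20 and BIRC5, of mitosis, had the higher effect with Ser-tRNA_Arg(CCG), by 1.48, 1.23 and 1.15. SLBP, the histone stem-loop binding protein, and CDC6, of replication licensing, had the lower one, by -1.71 ± 0.08 and -1.49 ± 0.11. RRM2, a ribonucleotide reductase subunit, fell with both, from a mean of 164 ± 9.04 CPM (SD, n = 3) to 35.7 ± 0.0635 with Ser-tRNA_Arg(CCG) and from 126 ± 4.80 to 88.3 ± 5.77 with Arg-tRNA_Cys(GCA), and the falls differed by -1.69 ± 0.08.

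Of the interferon-stimulated genes, 9 of 28 rose and 14 fell with Ser-tRNA_Arg(CCG), and with Arg-tRNA_Cys(GCA) 8 rose and 4 fell (2 and 14 with library totals). The 9 and 8 rises lie near the shares of all genes. IFIT1, which binds viral RNA, was at 0.943 ± 0.213 CPM (SD, n = 3) with EGFP(R65) and 1.42 ± 0.192 with Ser-tRNA_Arg(CCG), and at 4.71 ± 0.374 CPM with EGFP(R96C) and 2.28 ± 0.459 with Arg-tRNA_Cys(GCA). It rose and fell, with a difference of 1.64 ± 0.24, and its rise lost its call without EGFP(R65) replicate 1 (adjusted p = 0.084). ISG20, an RNA exonuclease, had the higher effect with Ser-tRNA_Arg(CCG), by 1.97 ± 0.25, and the RNA sensor IFIH1 and IFIT5 lower ones, by -1.51 and -1.31.

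Among 26 autophagy and lysosome genes, 13 rose and 5 fell with Ser-tRNA_Arg(CCG), 19 rose and 5 fell with Arg-tRNA_Cys(GCA) (11 and 9 with library totals), and 11 rose with both (10.8% of all tested genes). MAP1LC3B, the LC3 protein of autophagosomes, and LAMP1, of the lysosome membrane, differed by -1.88 ± 0.10 and -1.72 ± 0.11. ULK1 and ATG2A, of autophagosome initiation and lipid transfer, instead rose with Ser-tRNA_Arg(CCG), by 0.66 each, and fell with Arg-tRNA_Cys(GCA), by 0.41 and by 0.68 on the log2 scale. Of 18 SR splicing factors and CLK kinases, the difference was lower for 14 and higher for 3, against 31.3% and 25.3% of all tested genes. The kinase CLK1 led the list at -2.15 ± 0.09. These genes were chosen for mention after their values were seen, apart from the 4 leading members of each list.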
